A study of Mus musculus with 4 samples.

Results

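The mitochondrial carriers of the SLC25 family were examined in the mouse heart, where 37 family genes were described out of 47 that the data list by a symbol of the form Slc25a followed by a number, among 23282 genes in all. A member was described when its normalized read count averaged 4 or more over the 4 heart libraries. Each library came from 1 group of CDF1 mice, whose age the labels give as postnatal date 28: E(-)T(-), the control, without exercise or tumor, E(+)T(-) with treadmill exercise alone, E(-)T(+) with tumor alone and E(+)T(+) with both. Values of a gene in all libraries are given in this order. The study states that the mice were 4 weeks old when bought and were killed at the end of the experiment, so the hearts came from older mice. The tumor was made by injecting CT26 colorectal cancer cells into a tail vein, which spreads the cells through the body, and the exercise was of high intensity. Each group had 10 mice, and how many of them gave RNA to a heart library is not stated in the sources used here. With 1 library per group no difference has a replicate check, so no p-value is given and no statement below goes beyond these 4 libraries.

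SLC25 proteins sit mostly in the inner mitochondrial membrane and exchange small molecules between the cytosol and the matrix. Best known in the heart are the ADP/ATP carriers, which export the ATP that the beating muscle uses, and the phosphate carrier that feeds the ATP synthase. Other members carry fuels such as acylcarnitine, the reducing equivalents of the malate-aspartate shuttle, amino acids, nucleotides, cofactors, iron and glutathione. The proteins are made in the cytosol and are brought into the inner membrane by the TIM22 route.

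The libraries were made from the 3′ ends of mRNA, so the level of a gene is not divided by its length. Levels of different genes are set side by side as reads only. Whether reads of each gene were captured and counted equally well was not examined. Totals ran from 6595398 to 11545875 reads. The heart label was checked with 10 cardiomyocyte markers, which summed to between 471079 and 513246 normalized reads per library, none of them at 0 and none differing by 2-fold in any comparison. The E(+)T(+) library stood apart because globin mRNA made up 37.3% of its reads, against 7.86 to 8.76% elsewhere. Neutrophil markers summed to 2913 and 5524 normalized reads in the tumor libraries, the second with exercise, against 110 and 77.9 in the tumor-free ones. Scaling to library size in place of the deposited normalization moved the median log2 fold change of all genes to -0.59 for E(+)T(+) vs. E(-)T(+), to -0.73 for E(+)T(+) vs. E(+)T(-) and to -0.17 for E(-)T(+) vs. E(-)T(-). In bulk tissue, fewer cells of a type and less RNA per cell cannot be told apart.

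The carriers made up 1.41% of all reads in the control, 1.41% with exercise, 1.5% with tumor and 1.11% with both. Outside the globin genes these shares were 1.54, 1.54, 1.63 and 1.78%, so the low share of E(+)T(+) was seen only with the globin reads counted. Slc25a4 alone held 72.7 to 81.3% of the family's reads and Slc25a3 another 10.2 to 14%. All the other members together held between 8.53%, in E(-)T(+), and 14%, in E(+)T(+). Among the 37 genes, 34 averaged 16 or more normalized reads and 21 averaged 100 or more. The plot of levels shows the resulting order, in which Slc25a4 lay far above the rest. Further down, neighboring genes had close means, such as 89.47 for Slc25a33 and 89.39 for Slc25a22. Slc25a22 ranged from 45.7 to 134 between libraries, so the order there is not fixed.

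**Figure D1:**
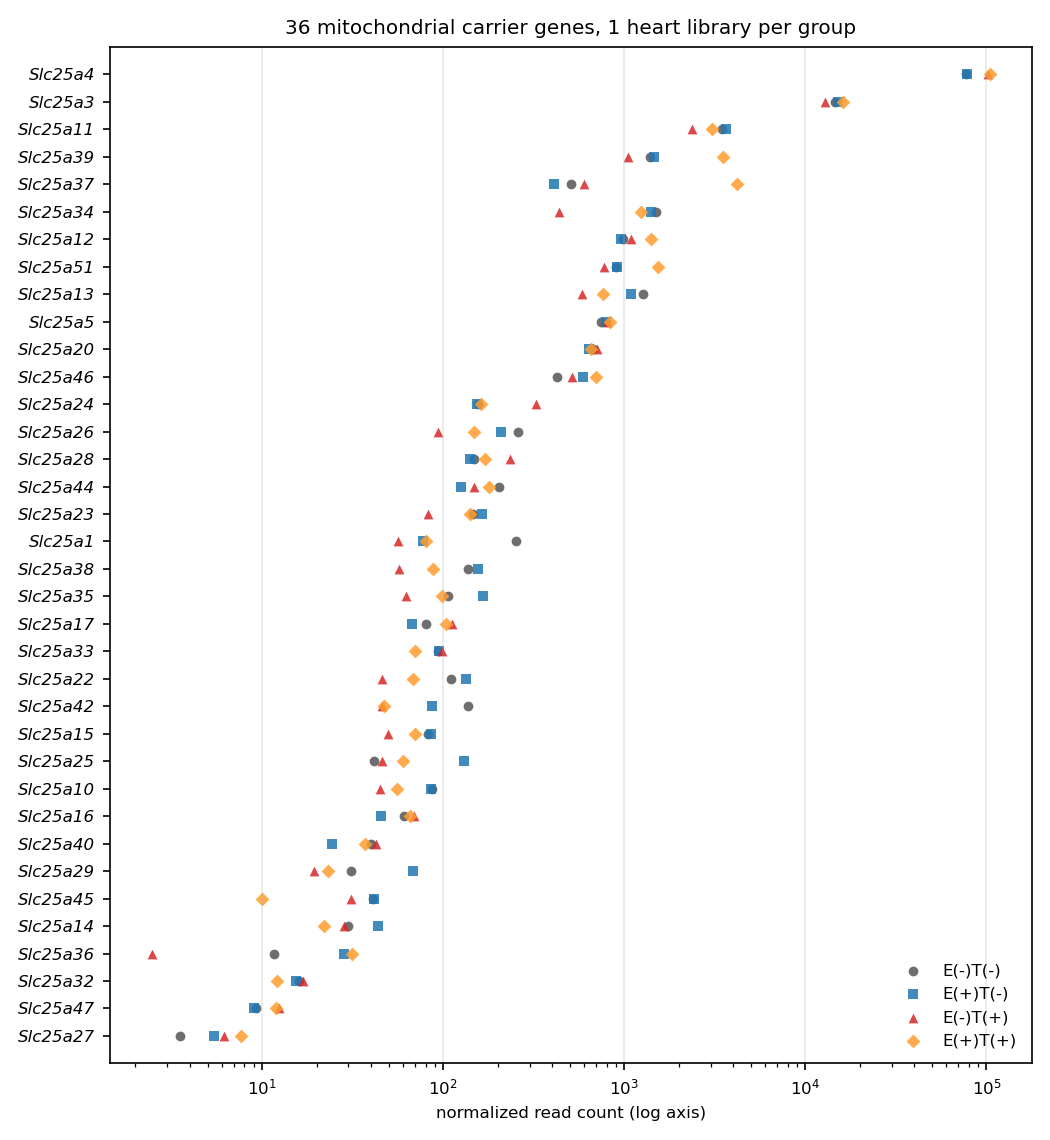
Normalized read count (log axis) of 36 of the 37 carrier genes in the 4 heart libraries, 1 point per library, ordered by mean. Slc25a4 lies between 77289 and 104779, Slc25a37 and Slc25a39 stand out to the right in E(+)T(+), and Slc25a34, Slc25a13 and Slc25a26 lie to the left in E(-)T(+).

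Promoter sequences are shown for the most abundant carrier, Slc25a4, and for 3 members with large differences, Slc25a39, Slc25a34 and Slc25a1, to let the sequence be read beside the values. They are RefSeq sequences of build GRCm38.p6, 300 bases each around the annotated start, all on the minus strand and printed 5′ to 3′ along the gene, with searched motifs in capitals. The motifs were AGATAA (bound by GATA factors), CACGTG (an E-box), CCAAT and TATAAA, each on both strands, so that ATTGG marks a CCAAT box in reverse. Positions count the first base of a motif from the start site, which is 0.
Slc25a4, chr8:46211013-46211312: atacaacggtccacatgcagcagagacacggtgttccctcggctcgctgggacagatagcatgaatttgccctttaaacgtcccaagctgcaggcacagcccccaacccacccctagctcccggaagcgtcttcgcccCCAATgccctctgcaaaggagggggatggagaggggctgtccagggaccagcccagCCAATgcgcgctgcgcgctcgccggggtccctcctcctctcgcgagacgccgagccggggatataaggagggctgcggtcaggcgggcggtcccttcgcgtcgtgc
Slc25a39, chr11:102407468-102407767: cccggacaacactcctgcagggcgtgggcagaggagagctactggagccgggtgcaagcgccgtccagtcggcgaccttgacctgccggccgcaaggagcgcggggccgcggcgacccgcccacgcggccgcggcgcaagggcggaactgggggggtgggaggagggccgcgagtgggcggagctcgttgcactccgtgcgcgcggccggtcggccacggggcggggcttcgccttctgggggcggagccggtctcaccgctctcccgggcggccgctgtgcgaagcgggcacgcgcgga
Slc25a34, chr4:141623785-141624084: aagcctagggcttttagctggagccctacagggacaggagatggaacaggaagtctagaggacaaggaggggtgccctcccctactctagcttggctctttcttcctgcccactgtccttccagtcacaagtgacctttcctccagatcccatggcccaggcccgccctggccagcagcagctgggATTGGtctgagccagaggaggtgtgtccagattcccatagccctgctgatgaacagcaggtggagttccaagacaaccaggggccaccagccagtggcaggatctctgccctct
Slc25a1, chr16:17928170-17928469: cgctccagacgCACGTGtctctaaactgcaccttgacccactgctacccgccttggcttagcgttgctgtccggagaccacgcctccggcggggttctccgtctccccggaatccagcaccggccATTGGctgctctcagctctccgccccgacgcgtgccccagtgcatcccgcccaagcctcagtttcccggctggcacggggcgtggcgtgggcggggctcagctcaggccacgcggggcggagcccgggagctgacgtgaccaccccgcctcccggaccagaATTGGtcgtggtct
Slc25a4 had CCAAT boxes at -112 and -56, Slc25a34 a reverse one at -64, Slc25a1 an E-box at -239 with reverse CCAAT boxes at -125 and 36, and Slc25a39 none of the motifs. In all, 28 of the 37 members matched 36 promoters. Slc25a37 was among the members without a promoter sequence, so no motif was searched for there. CCAAT was in 52.8% of the 36, against 37.4% of 32851 promoters of the same length, and CACGTG in 19.4% against 7.15%. AGATAA was in 5.56%, at Slc25a22 and Slc25a5, against 11.2%, and TATAAA in none against 13.6%. A match is a run of letters and is not evidence of binding, and members with more than 1 start contributed several promoters that may overlap.

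A gene was called when one of the libraries compared held 4 or more normalized reads and the difference was 2-fold or more, on the scale log2(normalized read count + 1). On this scale the differences of scarce genes come out too small. All 37 members passed the minimum in each of the 4 comparisons, which share libraries and are therefore not independent. For exercise without tumor, E(+)T(-) vs. E(-)T(-), 4 of 37 members were called, or 10.8%, against 12.3% of all genes that passed the minimum. Higher were Slc25a25, Slc25a29 and Slc25a36 (8.11% of members, against 5.88% of all genes), and lower was Slc25a1 (2.7% against 6.4%). For exercise with tumor, E(+)T(+) vs. E(-)T(+), 6 members were called, or 16.2%, against 19.4% of all genes. Slc25a37, Slc25a39, Slc25a34 and Slc25a36 were higher (10.8% against 9.39%), and Slc25a24 and Slc25a45 were lower (5.41% against 10%).

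The tumor without exercise, E(-)T(+) vs. E(-)T(-), gave 10 calls, or 27%, against 27.6% of all genes. Only Slc25a24 was called higher, and 9 members were called lower, among them Slc25a34, Slc25a13, Slc25a26, Slc25a1, Slc25a38, Slc25a22, Slc25a42 and Slc25a36. Thus 24.3% of the members were called lower and 2.7% higher, against 13.1% and 14.6% of all genes. With exercise, E(+)T(+) vs. E(+)T(-), the tumor comparison called 5 members, or 13.5%, against 23% of all genes, with Slc25a37 and Slc25a39 higher (5.41% against 12%) and Slc25a25, Slc25a29 and Slc25a45 lower (8.11% against 11.1%). This last count was 15 under library size scaling, 14 of them lower, when 40.9% of all genes were called and 35.3% were lower. With the deposited normalization the overall share of called carriers was in no comparison above that of all genes.

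Over the 37 members the median log2 fold change was 0.015 for E(+)T(-) vs. E(-)T(-), 0.33 for E(+)T(+) vs. E(-)T(+), -0.23 for E(-)T(+) vs. E(-)T(-) and 0.041 for E(+)T(+) vs. E(+)T(-). Over all 13731 genes with a mean of 4 or more normalized reads, the medians were 0.002, -0.012, -0.017 and -0.019. These genes share the minimum of the members but were not matched to them on level. Members were higher in 20, 26, 16 and 19 of 37 cases, and lower in 17, 11, 21 and 18. For all genes 50.1, 49, 48.9 and 48.8% were higher. Under library size scaling the 3 positive medians became -0.0055, -0.24 and -0.67, and the all-gene medians of these comparisons became -0.015, -0.59 and -0.73. The plot of carriers and all genes shows the members of each comparison beside that background.

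**Figure D2:**
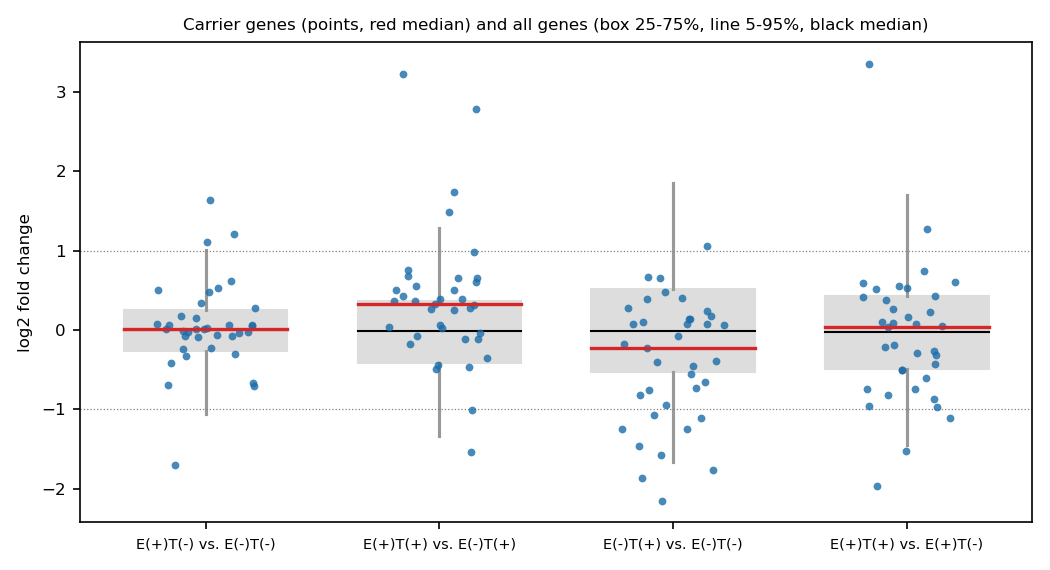
Log2 fold change of the 37 carrier genes (points, red line their median) in the 4 comparisons, over the 5th to 95th (grey line) and 25th to 75th percentiles (box) and the median (black line) of 13731 genes. The carrier median lies at 0.33 for E(+)T(+) vs. E(-)T(+) and at -0.23 for E(-)T(+) vs. E(-)T(-), against -0.012 and -0.017 for all genes, and most points lie inside the grey lines.

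The adenine nucleotide and phosphate carriers include the most abundant members of the family, none of which was called. Slc25a4, the ADP/ATP carrier of heart and skeletal muscle, had 77289 normalized reads in the control, 78531 with exercise, 102551 with tumor and 104779 with both. Both tumor libraries were thus above both tumor-free ones, with a log2 fold change of 0.41 without and 0.42 with exercise, the second turning to -0.30 under library size scaling. Slc25a3, the phosphate carrier, had 14602, 15065, 12862 and 16202 normalized reads in the same order. Slc25a5, the ADP/ATP carrier of many proliferating tissues, had 749, 791, 805 and 838. It was nearly level over the libraries with the deposited normalization, and each of its 95% counting intervals included no difference. These intervals are exact Clopper-Pearson and cover counting error only, since PCR copies are not independent molecules. Scaled to library size, Slc25a5 had -0.53 for E(+)T(+) vs. E(-)T(+) and -0.64 for E(+)T(+) vs. E(+)T(-), beside all-gene medians of -0.59 and -0.73.

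Ratios of recovered reads within a library do not depend on its scaling. Slc25a4 exceeded Slc25a5 by 103-fold in the control (95% counting interval 95.6 to 112), 99.2-fold with exercise (92.8 to 106), 127-fold with tumor (119 to 136) and 125-fold with both (116 to 134). Reads of Slc25a4 therefore outnumbered those of Slc25a5 by more in both tumor libraries, with intervals that did not overlap those of the tumor-free libraries. Slc25a4 to Slc25a3 was 5.29 (5.19 to 5.39), 5.21 (5.13 to 5.3), 7.97 (7.84 to 8.11) and 6.47 (6.36 to 6.58) in the same order. Here E(-)T(+) had the highest ratio and E(+)T(+) lay between it and the tumor-free libraries.

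The calcium-regulated ATP-Mg/phosphate carriers, which adjust the adenine nucleotide content of the matrix, were less abundant and more uneven. Slc25a24 had 156 normalized reads in the control, 153 with exercise, 327 with tumor and 162 with both. It was high in E(-)T(+) alone, with a log2 fold change of 1.06 (0.78 to 1.36) against E(-)T(-) and of -1.01 (-1.30 to -0.73) for E(+)T(+) vs. E(-)T(+). Both values lie close to the 2-fold threshold: the first was 0.91 when scaled to library size and the second -0.99 with a pseudocount of 4. Slc25a23, which averaged 133.3, had a log2 fold change of -0.82 for E(-)T(+) vs. E(-)T(-), so that the ratio of Slc25a24 to Slc25a23 was 3.94 (3.13 to 4.99) in E(-)T(+) and between 0.939 and 1.15 in the others. Slc25a25 had 41.4, 131, 45.8 and 60.2 normalized reads in the order of groups above. It was high in E(+)T(-) alone, with log2 fold changes of 1.64 (1.13 to 2.24) against E(-)T(-) and -1.11 (-1.60 to -0.67) for E(+)T(+) vs. E(+)T(-).

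Most fibroblast and macrophage markers were also high in E(-)T(+). The 7 fibroblast genes summed to 25496 normalized reads in the control, 30556 with exercise, 55307 with tumor and 32160 with both, and the 7 macrophage genes to 2961, 3908, 6386 and 3537. None of either list was at 0. For E(-)T(+) vs. E(-)T(-), 4 fibroblast and 5 macrophage genes were called higher, with medians of 1.27 and 1.44, against 14.6% of all genes called higher. For E(+)T(+) vs. E(-)T(+), 5 and 3 were called lower, against 10% of all genes. The fibroblast genes differed in the other comparisons too, where Slc25a24 did not reach 2-fold: 2 were called higher for E(+)T(-) vs. E(-)T(-), with a median of 0.64 beside -0.03 for Slc25a24, and 4 were called lower for E(+)T(+) vs. E(+)T(-), with a median of -1.39 beside 0.083. The shares of all genes were 5.88% called higher for E(+)T(-) vs. E(-)T(-) and 11.1% called lower for E(+)T(+) vs. E(+)T(-). The fibroblast sums are mostly reads of Dcn. The markers' part in the Slc25a24 result was not tested.

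**Figure D3:**
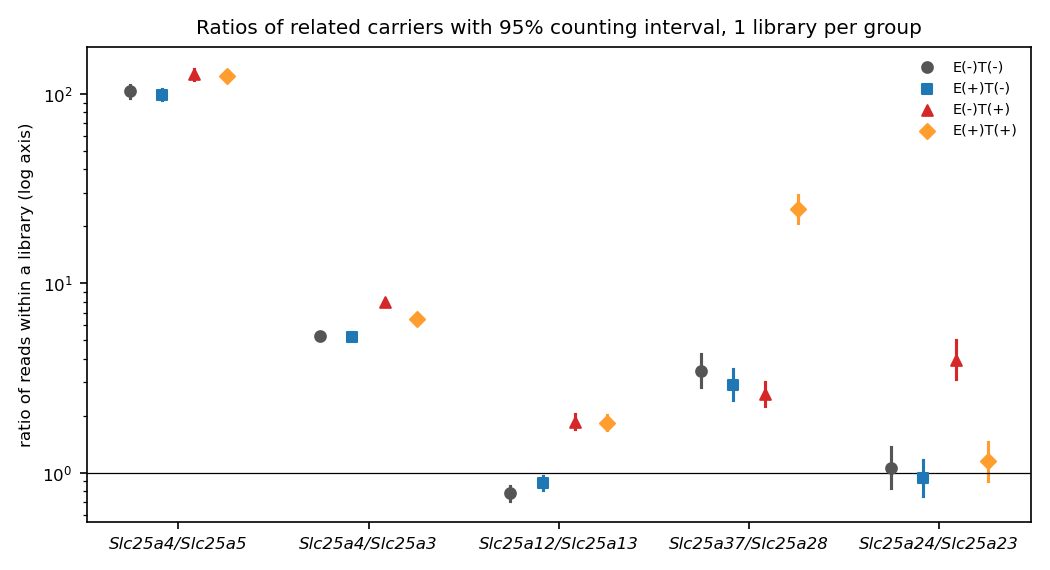
Ratio of recovered reads of related carriers within each library (log axis), with 95% counting intervals, for 5 pairs. Slc25a12/Slc25a13 lies above 1 in both tumor libraries (1.85 and 1.83), Slc25a37/Slc25a28 reaches 24.6 in E(+)T(+), and Slc25a24/Slc25a23 reaches 3.94 in E(-)T(+).

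Iron and glutathione carriers held the largest log2 fold change among members averaging 100 or more normalized reads. Slc25a37, mitoferrin-1, which brings iron into the mitochondria of developing red cells for heme synthesis, had 511 normalized reads in the control, 407 with exercise, 603 with tumor and 4169 with both. It was far higher in E(+)T(+) than in the other libraries, with a log2 fold change of 2.79 (2.67 to 2.91) against E(-)T(+) and 3.35 (3.22 to 3.50) against E(+)T(-), or 6.9-fold and 10.2-fold. Slc25a39, which imports glutathione into mitochondria, had 1387, 1452, 1055 and 3521 normalized reads. E(+)T(+) was again the highest, by 1.74 (1.64 to 1.83) and 1.28 (1.19 to 1.36) on the log2 scale, the second of which was 0.56, under the 2-fold threshold, when scaled to library size.

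Their close relatives were not called in any comparison. Slc25a28, mitoferrin-2, the iron carrier of cells other than red cell precursors, had between 140 and 233 normalized reads, and its highest library was E(-)T(+). Slc25a40, the relative of Slc25a39, had between 24.3 and 42.4. Slc25a37 to Slc25a28 was 3.46 (2.84 to 4.24) in the control, 2.9 (2.41 to 3.51) with exercise, 2.59 (2.24 to 3) with tumor and 24.6 (20.9 to 29.1) with both. The intervals of the first 3 libraries overlapped, and that of E(+)T(+) lay far above them. Slc25a39 to Slc25a40 was 34.6, 59.5, 24.9 and 94.7 in the same order, with an interval of 67.6 to 137 in E(+)T(+) that overlapped that of E(+)T(-), 40.7 to 90.5.

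Erythroid markers were high in the same library. The 10 erythroid genes with reads summed to 526692, 508566, 522667 and 3593961 normalized reads in the order of groups above, none was at 0, and 10 of 10 were called higher in E(+)T(+) in both comparisons, with medians of 3.11 against E(-)T(+) and 3.18 against E(+)T(-). The shares of all genes called higher in these comparisons were 9.39 and 12%. Slc4a1, the anion exchanger of the red cell membrane, had 30, 55, 47 and 1273 recovered reads. Slc25a38, the glycine carrier that also serves heme synthesis, did not share the pattern. Its 137, 156, 57.2 and 87.5 normalized reads were lowest in E(-)T(+), with a log2 fold change of -1.25 (-1.72 to -0.82) against E(-)T(-), and its level in E(+)T(+) was under that of both tumor-free libraries. The part of erythroid cells in the Slc25a37 and Slc25a39 values was not tested.

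Of 14 other genes of mitochondrial iron handling and heme synthesis, 4 were called higher and none lower for E(+)T(+) vs. E(-)T(+), and 2 higher and 1 lower for E(+)T(+) vs. E(+)T(-). The shares of all genes were 9.39% higher and 10% lower in the first, and 12% and 11.1% in the second. Alas2, the erythroid form of the first enzyme of heme synthesis, which is also among the erythroid markers above, had log2 fold changes of 2.75 and 3.16 in these comparisons. Fech, which inserts iron into the porphyrin ring, had 1.99 (1.89 to 2.10) in the first and an interval of 1.90 to 2.10 in the second. For E(-)T(+) vs. E(-)T(-), 3 of the 14 were called lower and none higher, against 13.1% and 14.6% of all genes, and the median was -0.28.

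**Figure D4:**
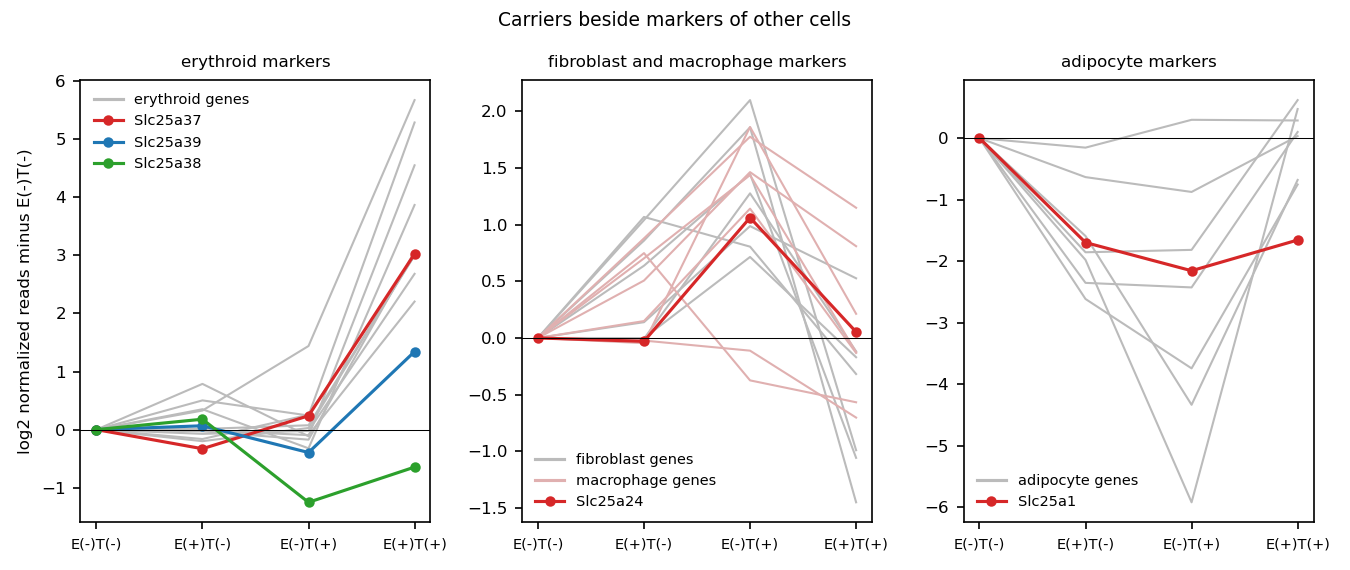
Log2 normalized reads minus the value in E(-)T(-), by library, for named carriers (colored) and for each marker gene of erythroid cells, fibroblasts and macrophages, and adipocytes (pale lines). Lines only join the values of a gene. Slc25a37 reaches 4169 normalized reads in E(+)T(+) among the erythroid genes while Slc25a38 stays under its E(-)T(-) level, and Slc25a24 is high in E(-)T(+) alone.

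Of the 7 carriers of amino acids described, 6 were lower in E(-)T(+) than in E(-)T(-), as were 51% of all genes, and 3 were called lower, against 13.1% of all genes. Their median was -0.73. All 7 were higher in E(+)T(+) than in E(-)T(+), none by 2-fold, with a median of 0.39. Of all genes, 49% were higher there and 9.39% were called higher. Of the 37 members, 26 were higher there, with a median of 0.33. The second direction turned for 6 of the 7 amino acid carriers under library size scaling. Slc25a12, aralar, the aspartate/glutamate carrier of heart, muscle and brain, had 986, 960, 1086 and 1402 normalized reads in the order of groups above. Slc25a13, citrin, which does the same exchange and is best known from liver, had 1268, 1084, 586 and 766. Slc25a13 was thus lower in both tumor libraries, with a log2 fold change of -1.11 (-1.26 to -0.98) without exercise and -0.50 (-0.64 to -0.36) with it, whereas Slc25a12 gave 0.14 (0.012 to 0.27) and 0.55 (0.43 to 0.67), which turned to -0.014 and -0.17 when scaled to library size.

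Which aspartate/glutamate carrier had more reads therefore differed between the libraries. The ratio of Slc25a12 to Slc25a13 was 0.777 (0.71 to 0.85) in the control, 0.885 (0.814 to 0.962) with exercise, 1.85 (1.69 to 2.04) with tumor and 1.83 (1.67 to 2.01) with both. Slc25a13 had more reads without tumor and Slc25a12 with it, and the intervals of the tumor and tumor-free libraries did not overlap. Slc25a11, the oxoglutarate/malate carrier that completes the malate-aspartate shuttle, had 3487, 3637, 2358 and 3035 normalized reads and was lowest in E(-)T(+), by -0.56 (-0.64 to -0.49) against E(-)T(-). Of the 7 enzymes of the malate-aspartate and glycerol phosphate shuttles, Gpd1, the cytosolic glycerol phosphate dehydrogenase, was called higher for E(+)T(+) vs. E(+)T(-), at 1.42 (1.21 to 1.65), and none in the other comparisons. Their median for E(-)T(+) vs. E(-)T(-) was 0.026.

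Slc25a22, a glutamate carrier, had 110, 134, 45.7 and 67.9 normalized reads. Its lowest value was in E(-)T(+), with a log2 fold change of -1.25 (-1.78 to -0.76) against E(-)T(-), and the tumor comparison with exercise was just short of 2-fold at -0.97 (-1.43 to -0.54). Slc25a29, a carrier of basic amino acids, had 31, 68.1, 19.3 and 23.1. E(+)T(-) was its highest library, by 1.11 (0.48 to 1.82) over E(-)T(-), and E(+)T(+) was lower than E(+)T(-) by a log2 fold change of -1.52 (-2.34 to -0.85). Slc25a44, a carrier of branched-chain amino acids, had between 126 and 203 normalized reads and Slc25a15, the ornithine carrier, between 49.3 and 86, and neither was called.

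Among the carboxylate carriers, Slc25a1 had the largest negative difference of any member averaging 100 or more normalized reads. Slc25a1, the citrate carrier, whose export of citrate supplies cytosolic acetyl-CoA for fatty acid synthesis, had 254 normalized reads in the control, 77.7 with exercise, 56.3 with tumor and 80 with both. E(-)T(-) alone was high: the log2 fold change was -1.70 (-2.09 to -1.34) for exercise without tumor and -2.15 (-2.60 to -1.77) for tumor without exercise. The comparisons that did not use E(-)T(-) gave 0.50 (-0.0041 to 1.01) and 0.041 (-0.43 to 0.50). The 2 calls share the E(-)T(-) library and are not independent of each other.

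Most adipocyte markers were also higher in the control than with exercise or tumor alone. The sums of the list, of which Pnpla2 and Cfd gave most reads, were 4504, 2630, 3147 and 5510 normalized reads, with Lep at 0 in the last 3 libraries and Plin1 at 0 in E(-)T(+). Of 7 genes with enough reads, 5 were called lower in E(+)T(-) and 5 in E(-)T(+) against E(-)T(-), with medians of -1.85 and -2.42, and 5 were called higher for E(+)T(+) vs. E(-)T(+). The shares of all genes called in these directions were 6.4, 13.1 and 9.39%. Cidec and Retn had 230 and 91 recovered reads in E(-)T(-) and 150 and 56 in E(+)T(+), with lower normalized values in the latter. The rest of the 7 genes had higher normalized values in E(+)T(+) than in E(-)T(-), unlike Slc25a1. Pnpla2 was also higher in E(-)T(+) than in E(-)T(-), by 0.30. For E(+)T(+) vs. E(+)T(-), 4 of the 7 were called higher, against 12% of all genes, with a median of 1.86, beside 0.041 for Slc25a1. The part of the adipocyte markers in the Slc25a1 values was not tested. Of the other carboxylate carriers, Slc25a10, the dicarboxylate carrier, had between 44.9 and 87 normalized reads, Slc25a14, an uncoupling protein relative, between 21.9 and 43.5, and none was called. The least abundant member described was Slc25a27, with a mean of 5.68.

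Carriers of other nucleotides and cofactors gave 4 of the 9 calls lower in E(-)T(+) vs. E(-)T(-), from 9 members described, against 13.1% of all genes called lower. Slc25a51, which imports NAD, was the most abundant of the 9 described, with 904, 912, 769 and 1534 normalized reads. E(+)T(+) was its highest library, at a log2 fold change of 0.99 (0.87 to 1.12) against E(-)T(+), just under 2-fold, and 0.75 (0.63 to 0.87) against E(+)T(-). Slc25a26, which imports S-adenosylmethionine, had 258, 209, 93.4 and 148, a difference of -1.46 (-1.81 to -1.12) for E(-)T(+) vs. E(-)T(-). Slc25a26 overlaps Lrig1 on the opposite strand at its 3′ end, and since the strand setting of the counting is not stated, reads of the pair cannot be told apart.

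Slc25a42, a coenzyme A carrier, had 138, 86.9, 45.7 and 47.1 normalized reads. For E(-)T(+) vs. E(-)T(-) its log2 fold change was -1.58 (-2.09 to -1.12), and it was about equally low in both tumor libraries. Slc25a36, a pyrimidine nucleotide carrier, was scarce, with 10, 31, 3 and 29 recovered reads, and its log2 fold changes of -1.86 (-4.61 to -0.16) for E(-)T(+) vs. E(-)T(-) and 3.23 (1.89 to 5.94) for E(+)T(+) vs. E(-)T(+) rest on the 3 reads of E(-)T(+). It was also higher in E(+)T(-) than in E(-)T(-), by 1.21 (0.22 to 2.48). Slc25a17, a coenzyme carrier of peroxisomes, had between 67.7 and 112 normalized reads and Slc25a33, another pyrimidine nucleotide carrier, between 70.1 and 98.8. Neither was called.

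The carnitine/acylcarnitine carrier Slc25a20, through which long-chain fatty acids enter the matrix for oxidation, had 673, 636, 709 and 656 normalized reads. With the deposited normalization it was level over the 4 libraries, with log2 fold changes between -0.11 and 0.076 and each counting interval including no difference. Scaled to library size, it had -0.70 for E(+)T(+) vs. E(-)T(+) and -0.67 for E(+)T(+) vs. E(+)T(-), beside all-gene medians of -0.59 and -0.73. The enzyme Cpt2, which hands the acyl group to coenzyme A on the matrix side, was less even. Its log2 fold change was -1.49 (-1.69 to -1.29) for E(-)T(+) vs. E(-)T(-) and 0.95 (0.74 to 1.16) for E(+)T(+) vs. E(-)T(+). Of the 6 carnitine shuttle genes, 2 were called lower and 1 higher in the first of these comparisons and 1 each way in the second. The shares of all genes were 13.1% lower and 14.6% higher in the first, and 10% and 9.39% in the second. Apart from Cpt2, each call was of a gene with at most 27 recovered reads in the libraries compared. Cpt1b, the muscle form of the enzyme that makes acylcarnitine, gave -0.35 and 0.25.

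The members for which no substrate is given here included Slc25a34, the sixth most abundant carrier. It had 1494 normalized reads in the control, 1410 with exercise, 439 with tumor and 1235 with both. E(-)T(+) alone was low, with a log2 fold change of -1.76 (-1.92 to -1.62) against E(-)T(-) and of 1.49 (1.34 to 1.65) for E(+)T(+) vs. E(-)T(+), the latter 0.90 and under 2-fold when scaled to library size. Slc25a46, a relative in the outer membrane that takes part in mitochondrial fission and fusion, had 425, 592, 515 and 696 normalized reads and was not called. Slc25a45 had 41.1, 41.7, 30.9 and 9.99. It was low in E(+)T(+), at 9 recovered reads, with log2 fold changes of -1.54 (-2.89 to -0.56) and -1.96 (-3.30 to -1.03) against E(-)T(+) and E(+)T(-). Slc25a35 had between 62.5 and 165 normalized reads, with its 3′ end overlapped by Rangrf on the opposite strand, and Slc25a47 had between 9.01 and 12.4.

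The members named above as called lower in E(-)T(+) vs. E(-)T(-) can be set beside their values for E(+)T(+) vs. E(-)T(+), which share the E(-)T(+) library. Slc25a34 and Slc25a36 were called higher there, at 1.49 and 3.23. The values of Slc25a13, Slc25a26, Slc25a1, Slc25a38, Slc25a22 and Slc25a42 were 0.39, 0.66, 0.50, 0.61, 0.56 and 0.043, all positive and short of 2-fold, and those of Slc25a13, Slc25a1, Slc25a22 and Slc25a42 were negative when scaled to library size. These members were picked for a low value in E(-)T(+), so positive values against that library were favored in advance and no conclusion is drawn from their signs. The plot of log2 fold changes shows the values by role.

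**Figure D5:**
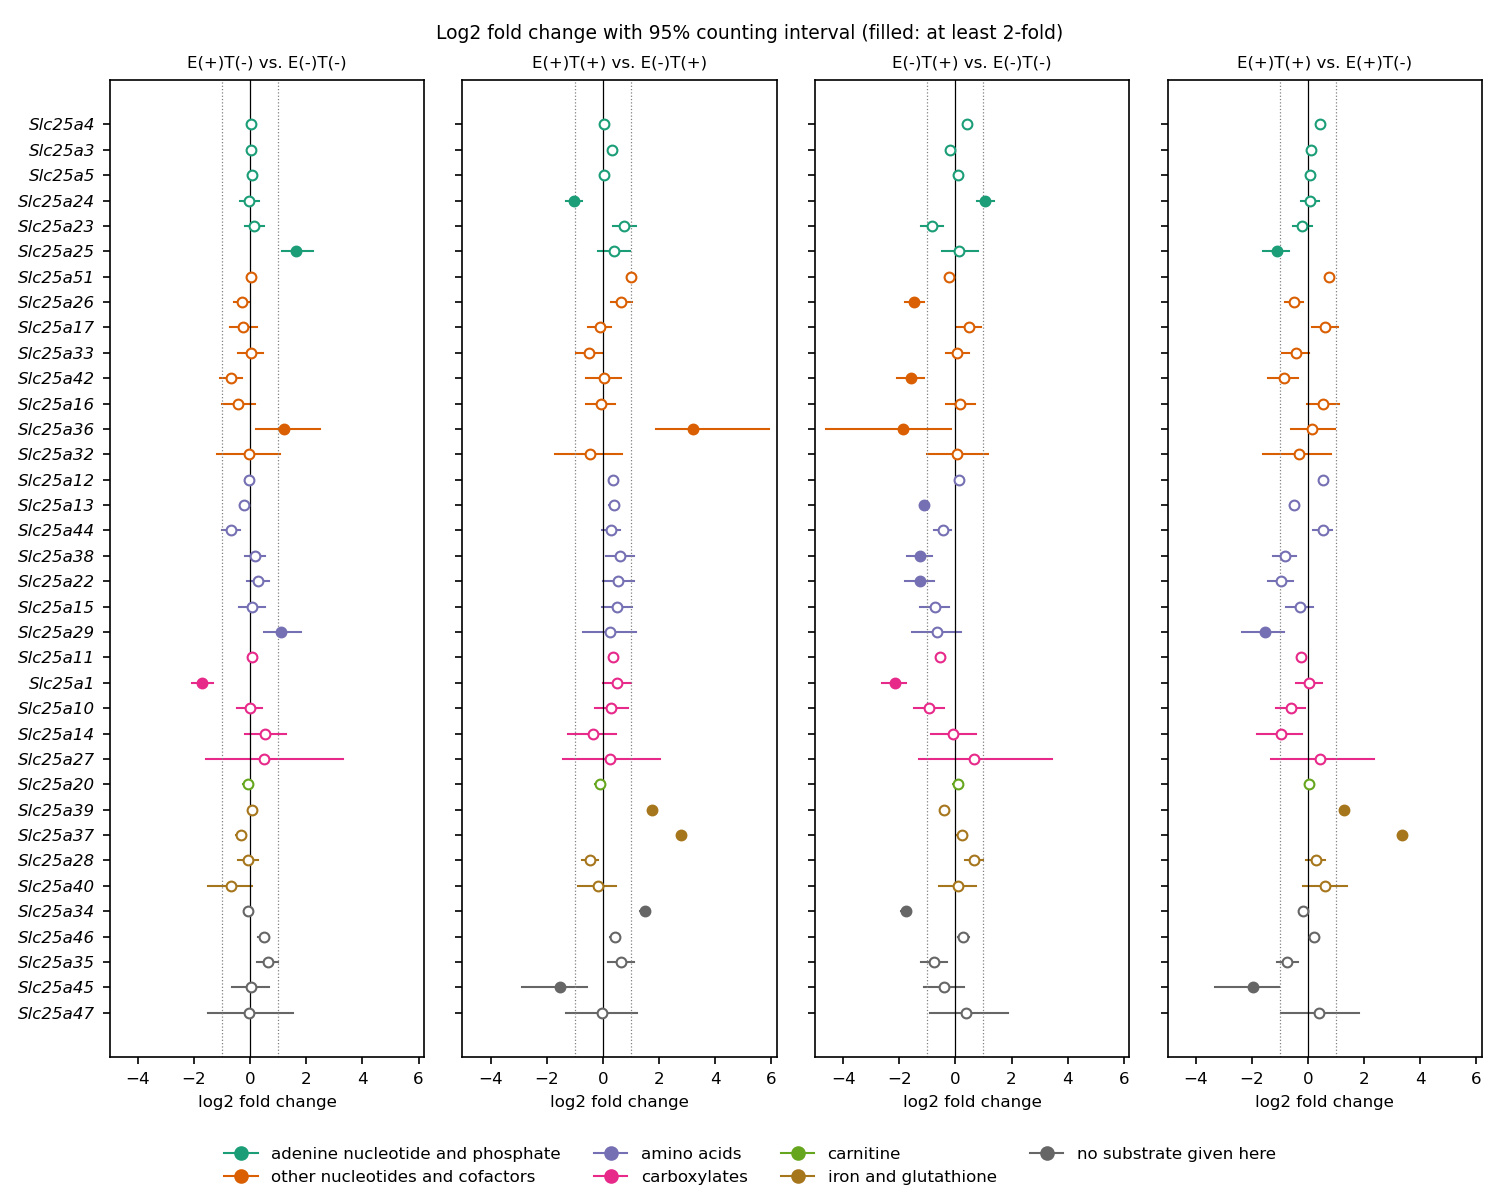
Log2 fold change of 36 of the 37 carriers in the 4 comparisons with its 95% counting interval, colored by role, with filled points for calls and dotted lines at 2-fold. Filled points lie mainly to the left for E(-)T(+) vs. E(-)T(-), where Slc25a24 alone was called higher, and Slc25a37 and Slc25a39 lie to the right in both comparisons of E(+)T(+).

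Members outside the description had almost no reads. Slc25a31, Slc25a21, Slc25a30, Slc25a2, Slc25a18 and Slc25a53 had at most 6 recovered reads in a library, and Slc25a48, Slc25a41, Slc25a54 and Slc25a43 were at 0 in all 4. Slc25a31, the ADP/ATP carrier known from testis, was the closest to the limit with a mean of 3.65.

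Genes that act with the carriers were examined as lists. Of 12 genes of the import path through the TIM22 complex, Timm22, the channel of that complex, was called higher for E(+)T(+) vs. E(-)T(+), at 1.09 (1.01 to 1.18), and was -0.68 (-0.77 to -0.58) for E(-)T(+) vs. E(-)T(-), where 1 gene of the list was called lower and the list ran from -1.68 to 0.93. None of 17 ATP synthase genes and none of 3 outer membrane channel genes was called in any comparison. The ATP synthase medians were 0.066, 0.21, 0.057 and 0.25 in the order of the comparisons above. Among 10 regulators of mitochondrial biogenesis, 7 were lower, 2 by the 2-fold rule, for E(-)T(+) vs. E(-)T(-), with a median of -0.58. Of all genes, 51% were lower there and 13.1% were called lower. All 10 were higher, 1 by that rule, for E(+)T(+) vs. E(-)T(+), with a median of 0.54. Of all genes, 49% were higher there and 9.39% were called higher. Under library size scaling the all-gene median of E(+)T(+) vs. E(-)T(+) was -0.59, and values of the regulators under that scaling are not given here. Ppargc1a, the coactivator best known for driving mitochondrial biogenesis, is also among the brown adipocyte markers. It gave -0.93 (-1.09 to -0.77) for E(-)T(+) vs. E(-)T(-) and 1.27 (1.12 to 1.42) for E(+)T(+) vs. E(-)T(+). Its relative Ppargc1b gave -1.26 (-1.52 to -1.02) and 0.79 (0.53 to 1.06) in the same order.

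Carriers of the same fold or membrane with other names were examined as a list of 12. For E(-)T(+) vs. E(-)T(-) 3 were called lower and none higher, against 13.1% and 14.6% of all genes. For E(+)T(+) vs. E(-)T(+) 3 were called higher and none lower, against 9.39% and 10% of all genes. Ucp3, the uncoupling protein of muscle, had 44, 27, 2 and 25 recovered reads in the order of groups above. Its log2 fold changes were -4.31 (-7.93 to -2.90) and 3.46 (1.95 to 7.08), and both rest on the 2 reads of E(-)T(+). Ucp2 had 285, 299, 537 and 1045 reads and was called higher in E(+)T(+) against either neighbor, by 1.27 (1.12 to 1.42) over E(-)T(+) and 2.08 (1.89 to 2.27) over E(+)T(-). Ucp1, the uncoupling protein of brown fat, had 814 reads in E(+)T(+) and 0 in the other libraries.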

How the data were processed

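Hearts of 4 groups of CDF1 mice were profiled by mRNA-seq, 1 library per group, with a QuantSeq 3′ kit. Per the labels' processing notes and the study's methods, the authors aligned reads with Bowtie2 to mm10, used bedtools to count reads per gene, and normalized by quantiles in R. On a log2 scale, the authors deposited log2(normalized read count + 1) for each gene and library. The design had allowed for read counts, so the deposited log2 values were used with the same 2-fold rule.

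Whole reads were recovered from the deposited values by inverting a negative binomial quantile adjustment with fitted relative library sizes and a dispersion of 0.149. The values were given back within 0.00052, and each of 25460 values of 5 to 99 reads (100%) came out whole to within 0.1. On simulated reads of 16644 genes, 97.6% were recovered exactly. For E(+)T(-) vs. E(-)T(-), 199 of 200 genes changed 3-fold were called in the right direction. Of 16444 unchanged genes 470 were called, 0 of them with a mean of 100 or more. The simulated reads carried counting error only, without variation between mice or a shift in globin share, and were normalized by the model that was then inverted. These counts therefore do not give the rate of false calls between real hearts.

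Fold changes are differences of deposited values, called at 2-fold or more with 4 or more normalized reads in a library of the comparison. Ratios of recovered reads carry 95% Clopper-Pearson intervals, which cover counting error only. No test across groups was possible. Members and gene lists were chosen with earlier results of these data known. Values in all libraries are given for the 12 members with the highest mean and for each member called with 16 or more normalized reads in a library of that comparison, and other members by range. Single values of 1 member and of some list genes are not reported here, though counts and medians include them. Other lists are given by counts and median, with up to 3 genes of large change. Alternatives covered scaling to library size, leaving 12 genes above 1% of a library out of the scaling, a pseudocount of 4, and other minimums. Promoters came from RefSeq (GRCm38.p6) and overlaps of the last 1000 bases from the gene annotation of the same build. The scripts ran in Python 3.11.15 (pandas 2.3.3, numpy 2.4.6, matplotlib 3.10.9, scipy 1.17.1).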

Additional observations from a re-analysis of the deposited data

Results flagged for a closer look

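The members named here differed in opposite directions between libraries under the same contrast, and since each group has 1 library none of these differences was tested. Slc25a37 had a log2 fold change of 2.79 for exercise with tumor against -0.33 without, beside the erythroid markers described above. Slc25a13 had 0.39 against -0.23 and Slc25a26 0.66 against -0.30 for the same contrasts. For the tumor with exercise against the tumor without, Slc25a39 had 1.28 against -0.39, Slc25a51 0.75 against -0.23, Slc25a44 0.52 against -0.45 and Slc25a3 0.10 against -0.18. Under library size scaling the opposite signs were lost for Slc25a13 (-0.20 with tumor), Slc25a44 (-0.20 with exercise) and Slc25a3 (-0.61 with exercise), and the positive values of Slc25a26 and Slc25a51 came down to 0.072 and 0.03.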

How the results depend on the processing

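No paired analysis was possible because the groups were separate mice and each group has 1 library. Under scaling to library size, no called member changed direction in any comparison, and the members called were 4, 7, 10 and 15 against 4, 6, 10 and 5 with the deposited normalization. With genes above 1% of a library left out of the scaling, the last count was 8, 2 higher and 6 lower. The median of the members turned to -0.0055 for E(+)T(-) vs. E(-)T(-), to -0.24 for E(+)T(+) vs. E(-)T(+) and to -0.67 for E(+)T(+) vs. E(+)T(-) with library size scaling. It turned to -0.029 for the first and -0.13 for the last with genes above 1% left out, and to -0.075 for the last over members averaging 16 or more. These turns of a small median accompany shifts of all genes, whose higher share of calls for E(+)T(+) vs. E(-)T(+) went from 48.4 to 12.9%, for E(+)T(+) vs. E(+)T(-) from 52 to 13.7% (41.3% with genes above 1% left out) and for E(-)T(+) vs. E(-)T(-) from 52.7 to 42.1%. The pseudocount of 4 and the other minimums kept each count of called members within 1.5 times. Of 72 list medians over genes averaging 16 or more, 71 stayed close and 3 turned sign. Counting error limits what can be said of Slc25a36, Slc25a45, Slc25a32, Slc25a27 and Slc25a47, with 14 reads or fewer in a library.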

Other observations

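Other markers were read in the same libraries. Of 6 endothelial markers, 3 were called lower for E(-)T(+) vs. E(-)T(-), against 13.1% of all genes, with a median of -0.94, and none in the other comparisons. Of 6 proliferation markers, 3 were called higher for E(-)T(+) vs. E(-)T(-) and 5 for E(+)T(+) vs. E(+)T(-), with medians of 1.31 and 2.12. The shares of all genes called higher were 14.6 and 12%. Of 8 brown adipocyte markers, 3 were called higher and 1 lower for E(+)T(+) vs. E(-)T(+), with a median of 0.73, and 3 higher and none lower for E(+)T(+) vs. E(+)T(-), with a median of 0.45. The shares of all genes were 9.39% higher and 10% lower in the first, and 12% and 11.1% in the second. Among skeletal muscle markers, Acta1, which the heart also expresses, had 12704, 17963, 5918 and 4307 recovered reads in E(-)T(-), E(+)T(-), E(-)T(+) and E(+)T(+), called lower with tumor in both comparisons, at -1.48 and -1.79. Ckm, also expressed in heart, was not called, and Actn3, Mylpf and Tnnt3 had at most 21 recovered reads in a library. Myh1 was at 0 in E(-)T(-) and Myh4 at 0 in E(-)T(+). Their part in the carrier values was not tested.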
